A study of Mus musculus with 4 samples.

Results

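The genes described here are 9 that bind, carry, esterify, isomerize or reduce retinoids in the eye without being retinol dehydrogenases: *Rlbp1*, *Rbp3*, *Rbp4*, *Ttr*, *Stra6*, *Lrat*, *Rpe65*, *Abca4* and *Retsat*. They were taken by symbol from a table of 22095 loci, and all 9 are listed in it once. Their mRNA was measured by RNA-seq in 4 libraries of mouse retina at 3 weeks of age, 2 from *rd7* mice, which carry a mutant *Nr2e3*, and 2 from wild-type mice, with the strain of both given as C57BL/6J. *Nr2e3* encodes a transcription factor that represses cone genes in developing rods, and the mutation is carried by every cell of the animal. Each library pooled 8 retinas of 2 female and 2 male mice, so a replicate is a pool of animals. The study compared the genotypes because hybrid rods of *rd7* mice can use a source of chromophore that normally serves cones.

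Vision consumes 11-*cis*-retinal, which light turns into the all-*trans* form, and the visual cycle restores it. In the canonical cycle ABCA4 moves retinoid out of the photoreceptor disc, retinoids cross the interphotoreceptor space on IRBP, the product of *Rbp3*, and in the pigment epithelium LRAT esterifies all-*trans*-retinol and RPE65 isomerizes the ester to 11-*cis*-retinol. CRALBP, the product of *Rlbp1*, binds the 11-*cis* forms in the pigment epithelium and in Müller cells, the glia that run a second cycle for cones. Vitamin A arrives from blood on RBP4, which circulates bound to transthyretin (*Ttr*), and enters cells through the receptor STRA6, while RETSAT saturates a double bond of all-*trans*-retinol.

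Values are FPKM, sequenced fragments scaled to the length of the transcript and to the mapped fragments of the library, which allows levels of different genes to be set side by side. The lowest values of genes with 1 annotated transcript put the depth at between 3.57e+07 and 3.73e+07 mapped reads per library. *Nr2e3* itself had an FPKM of 2493 and 1589 in *rd7* and 384.5 and 394.1 in wild-type libraries (log2 fold change 2.35, adjusted p = 0.0011 from limma). Its transcripts were thus higher in the libraries labelled as mutant, and an FPKM over the whole gene does not show whether they encode a working protein, so this level does not by itself check the label. Differences were tested with limma on log2(FPKM + 0.1), two-sided, for the 12655 genes whose FPKM averaged 1 or more, and a call below means an FDR of 5%. Of all these genes 46.4% were called, 37.6% higher and 8.80% lower in *rd7*, so 81.0% of the calls were higher. That share moved to 50.1% when libraries were scaled by median ratios, to 49.4% under quantile normalization (18.6% of genes higher and 19.0% lower), to 66.2% under equal totals of FPKM and to 45.1% after a GC and length correction (12.4% higher and 15.1% lower). Scaling by median ratios also took the median log2 fold change over the tested genes from 0.15 to -0.0049, so changes of about that size cannot be separated from the scaling.

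In retina the 9 genes spanned from *Rbp3*, at 893.5 ± 8.46 FPKM (SD, n = 2) in wild-type, to *Lrat*, at 0.280 ± 0.0627 FPKM (SD, n = 2). *Rbp3* alone made up between 68.1% and 73.0% of the summed FPKM of the 9 genes. In wild-type retinas the order below *Rbp3* was *Abca4* (176.1 FPKM), *Rlbp1* (161.0 FPKM), *Ttr* (17.1 FPKM), *Retsat* (3.90 FPKM), *Stra6* (1.51 FPKM), *Rpe65* (1.09 FPKM), *Rbp4* (0.448 FPKM) and *Lrat*. In *rd7* retinas *Rlbp1* (179.2 FPKM) stood above *Abca4* (127.3 FPKM), and *Lrat* (0.999 FPKM) above *Rbp4* (0.845 FPKM). *Stra6* and *Rpe65* were neighbours in both genotypes and their values overlapped in each, as did those of *Lrat* and *Rbp4* in *rd7*. All other neighbours in the order were separate in both libraries of the genotype, although *Abca4* and *Rlbp1* were only 1.09-fold apart in wild-type.

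**Figure D1:**
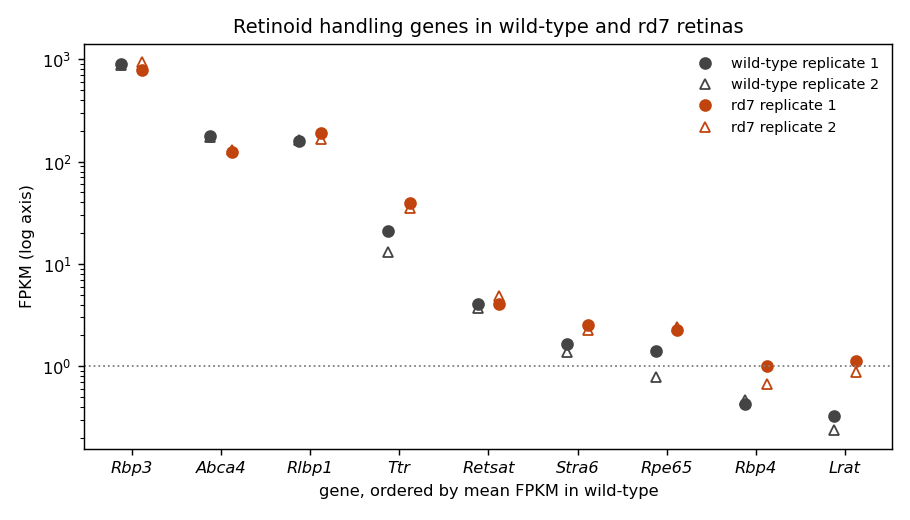
FPKM of the 9 genes (log axis) in each library, with wild-type in grey and *rd7* in orange, replicate 1 as filled circles and replicate 2 as open triangles, and a dotted line at 1 FPKM. *Abca4* is lower in both *rd7* libraries, *Rbp3* overlaps between genotypes, and the other 7 genes are higher in both *rd7* libraries.

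Of the 9 genes, 7 reached the mean FPKM of 1 and were tested, and *Rbp4* and *Lrat* were not. *Ttr*, *Rpe65* and *Stra6* were called higher in *rd7* and *Abca4* lower. A count of 3 higher genes among 7, or 42.9%, lies near the 37.6% of all genes tested. The values of 8 of the 9 genes did not overlap between the genotypes, 7 higher and 1 lower in *rd7*. Across all genes without a filter 55.7% did not overlap, 40.2% higher and 15.5% lower, and among the tested genes 76.6% did not, 57.1% higher and 19.5% lower, beside 5 higher and 1 lower of the 7 tested genes of the set. The median log2 fold change of the 7 genes was 0.19, beside 0.15 for all genes tested.

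**Figure D2:**
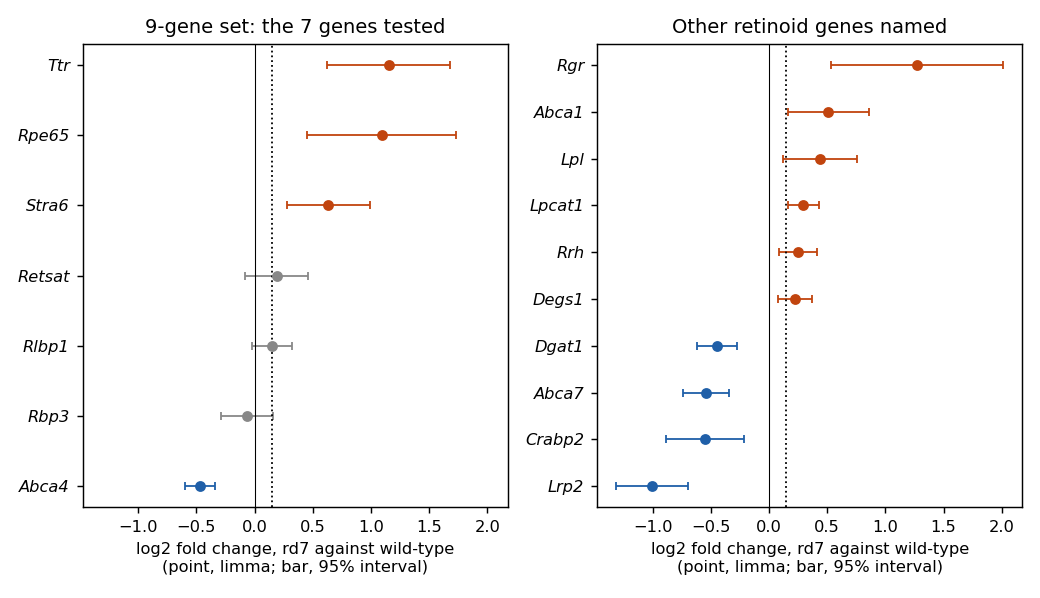
Log2 fold change of *rd7* against wild-type from limma, with 95% intervals, for the 7 tested genes of the set (left) and the called genes named in the text from a list of other retinoid genes (right). Orange marks genes called higher, blue those called lower and grey those not called, and the dotted line is the median of all genes tested, 0.15. The whole intervals of *Ttr*, *Rpe65* and *Stra6* lie to the right of that median and that of *Abca4* to its left. Those of *Retsat*, *Rlbp1* and *Rbp3* include it.

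Upstream sequences, from the RefSeq promoter table (build GRCm38.p6), are shown for the called genes other than *Ttr*. *Lrat*, the gene with the largest difference, and *Rbp3*, the most abundant and not called, are shown beside them. Sequences of 8 of the 9 genes were used. *Ttr* was left out of this search, so its promoter was not examined. Each sequence was placed on mm9, the build of the files, by an exact match. Each is the 250 bases before the start site, 5′ to 3′ on the gene's strand, and for *Stra6* the first of 4 start sites. Capitals mark matches on either strand to TAATCC, the CRX-type homeodomain letters, AAGTCA, an NR2E3-type core, TGCTGA, an NRL-type core, and AGGTCA, a general nuclear receptor core. Positions count back from the start site, with -1 as the base before it. No match in the printed sequences overlapped another.
Abca4 (chr3:121747128-121747377, plus strand): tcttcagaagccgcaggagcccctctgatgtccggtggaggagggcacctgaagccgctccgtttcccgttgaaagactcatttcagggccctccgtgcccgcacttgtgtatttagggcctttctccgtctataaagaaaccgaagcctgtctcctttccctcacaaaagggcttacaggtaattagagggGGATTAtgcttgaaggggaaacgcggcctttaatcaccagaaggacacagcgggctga
Rbp3 (chr14:34766939-34767188, plus strand): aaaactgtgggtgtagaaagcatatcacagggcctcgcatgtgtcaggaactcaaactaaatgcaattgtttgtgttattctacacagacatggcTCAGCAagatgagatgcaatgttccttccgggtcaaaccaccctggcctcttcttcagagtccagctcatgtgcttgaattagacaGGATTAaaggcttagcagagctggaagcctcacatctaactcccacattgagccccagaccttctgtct
Rpe65 (chr3:159261895-159262144, plus strand): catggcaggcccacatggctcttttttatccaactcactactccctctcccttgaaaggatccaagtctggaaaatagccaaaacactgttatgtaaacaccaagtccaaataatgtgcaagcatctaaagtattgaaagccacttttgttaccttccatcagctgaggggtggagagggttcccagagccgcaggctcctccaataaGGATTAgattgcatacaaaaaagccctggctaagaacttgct
Stra6 (chr9:57976645-57976894, plus strand): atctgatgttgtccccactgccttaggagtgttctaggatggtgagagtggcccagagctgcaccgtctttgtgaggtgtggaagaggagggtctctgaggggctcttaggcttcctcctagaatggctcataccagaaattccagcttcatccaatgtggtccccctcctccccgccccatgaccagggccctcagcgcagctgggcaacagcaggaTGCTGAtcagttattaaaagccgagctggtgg
Lrat (chr3:82707897-82708146, minus strand): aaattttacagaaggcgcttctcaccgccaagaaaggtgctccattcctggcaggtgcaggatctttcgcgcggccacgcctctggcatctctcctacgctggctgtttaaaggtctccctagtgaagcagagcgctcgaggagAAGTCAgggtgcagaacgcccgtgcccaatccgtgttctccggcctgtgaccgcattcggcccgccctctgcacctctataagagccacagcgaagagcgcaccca

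The CRX-type letters, read on the opposite strand, stand at -58 to -53 in *Abca4*, at -69 to -64 in *Rbp3* and at -42 to -37 in *Rpe65*. Of all 32851 promoters in the table, 6.25% hold them in a window of this length. AAGTCA stands at -106 to -101 in *Lrat*, and 13.1% of all promoters hold it. TGCTGA stands in *Rbp3* (-155 to -150), in *Stra6* (-32 to -27) and at the far end of the *Rlbp1* window (-250 to -245), and 16.1% of promoters hold it. AGGTCA, in 14.0% of all promoters, was not found in these windows of the 8 genes. The CRX-type letters thus stand in *Abca4*, which fell, in *Rpe65*, which rose, and in *Rbp3*, which was not called. Any part of these letters in the changes was not tested.

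*Abca4* encodes the transporter of photoreceptor discs that clears retinal bound to phosphatidylethanolamine. The gene lies at chr3:121747378-121882979 of mm9 on the plus strand, and its annotated transcripts merge to 58 exon blocks. Its FPKM was 123.6 and 131.0 for the *rd7* pools against 179.4 and 172.8 for the wild-type pools. Both *rd7* pools lay below both wild-type pools, and the gap between genotypes was larger than the spread within either. *Abca4* fell by 0.47 on the log2 scale (standard error 0.05, 95% interval -0.60 to -0.34, adjusted p = 0.00222 from limma), to 0.723 of its wild-type level. It was called lower under all 14 other settings tried, with log2 fold changes from -0.69 to -0.43. Rod genes fell beside it. Of 8 rod markers 7 were tested, and 4 were called lower and 0 higher, beside 8.80% and 37.6% of all genes tested. Their summed FPKM was 9166 and 9874 in *rd7* against 12643 and 12885 in wild-type. That sum is over the 7 tested markers. Relative to the geometric mean of the 7 tested rod markers, *Abca4* stood at 0.128 and 0.132 in *rd7* and at 0.148 and 0.140 in wild-type. Relative to their sum it stood at 0.0135 and 0.0133 in *rd7* and at 0.0142 and 0.0134 in wild-type, where the genotypes overlapped narrowly. Whether the change in rod genes accounts for that of *Abca4* was not tested, and in a bulk sample fewer cells of a type and less RNA per cell cannot be told apart.

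*Rbp3* encodes IRBP, which photoreceptors secrete and which shuttles retinoids between them, the pigment epithelium and Müller cells. At chr14:34767208-34777402 of mm9, with 4 exon blocks on the plus strand, it ranks above 99.9% of all loci by mean FPKM. Its FPKM was 779.1 and 933.1 in *rd7* and 899.4 and 887.5 in wild-type libraries. The *rd7* values lay on either side of the wild-type values, and *Rbp3* was the only one of the 9 genes to overlap between genotypes. It was not called (log2 fold change -0.07, 95% interval -0.29 to 0.16, adjusted p = 0.568 from limma). Without *rd7* replicate 2 it was called lower at -0.20 (adjusted p = 0.0026 from limma), and without *rd7* replicate 1 the sign turned to 0.06, so 1 pool decides the value. Relative to the rod markers the gene was higher in *rd7*, at 0.809 and 0.943 times their geometric mean against 0.741 and 0.719. Both rods and cones make IRBP. Of 10 cone markers 8 were called higher and 0 lower, beside 37.6% and 8.80% of all genes tested. Their summed FPKM was 4517 and 4809 in *rd7* against 1453 and 1497 in wild-type. The part of the cone genes in the level of *Rbp3* was not tested.

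*Rlbp1* encodes CRALBP, the binding protein of 11-*cis*-retinoids in Müller cells and the pigment epithelium. It lies at chr7:86519757-86531913 of mm9 on the minus strand with 9 exon blocks. The FPKM of *Rlbp1* was 190.5 and 167.8 in *rd7* and 160.4 and 161.5 in wild-type libraries. The lower *rd7* value stood only slightly above the wild-type pair, which nearly coincided, and the 2 *rd7* pools differed more from each other. *Rlbp1* was not called (log2 fold change 0.15, 95% interval -0.02 to 0.32, adjusted p = 0.126 from limma), and with median-ratio scaling the difference was -0.0026. Without *rd7* replicate 2 it was called higher at 0.24 (adjusted p = 0.0016 from limma). Of 8 other Müller cell markers, all tested, 5 were called higher and 0 lower, beside 37.6% and 8.80% of all genes tested. Their median log2 fold change was 0.44, and their summed FPKM was 1365 and 1338 in *rd7* against 1161 and 1195 in wild-type. Divided by the geometric mean of these markers, *Rlbp1* was at 4.41 and 3.82 in *rd7* and at 4.88 and 4.83 in wild-type. Divided by their sum it was at 0.140 and 0.125 in *rd7* and at 0.138 and 0.135 in wild-type, where the genotypes overlapped.

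*Ttr* encodes transthyretin, which carries thyroid hormone and the RBP4 complex, and which in the eye is made mainly by the pigment epithelium and the ciliary epithelium. The gene lies at chr18:20823751-20832825 of mm9, with 4 exon blocks. Its FPKM was 39.3 and 34.9 for *rd7* against 21.1 and 13.1 for wild-type. Both *rd7* values were above both wild-type values, while the wild-type pools differed from each other by more than the *rd7* pools did on the log scale. *Ttr* rose by 1.15 on the log2 scale (standard error 0.21, 95% interval 0.63 to 1.68, adjusted p = 0.00855 from limma), or 2.22-fold. By the estimated depth between 594 and 1714 reads lay behind each value, and the 95% exact Poisson intervals of the wild-type values, 19.8 to 22.5 FPKM and 12.1 to 14.2 FPKM, were apart, so the wild-type pools differed by more than counting error. With wild-type replicate 2 left out the log2 fold change was 0.81 and with wild-type replicate 1 left out 1.495, and both were called. Without a filter on low FPKM the same difference had an adjusted p of 0.133 from limma.

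*Rpe65* encodes the isomerohydrolase of the pigment epithelium. At chr3:159262145-159288271 of mm9 it has 14 exon blocks on the plus strand. The FPKM of *Rpe65* was 2.28 and 2.44 in *rd7* and 1.402 and 0.784 in wild-type libraries. The *rd7* pools were close to each other and above both wild-type pools, which were far apart. *Rpe65* rose by 1.09 on the log2 scale (standard error 0.26, 95% interval 0.45 to 1.73, adjusted p = 0.0191 from limma), or 2.13-fold. Between 47 and 140 estimated reads lay behind each value. The exact 95% Poisson interval of the higher wild-type library was 1.12 to 1.74 FPKM. It did not meet that of the lower *rd7* library, 1.90 to 2.70 FPKM, nor that of the other wild-type library, 0.575 to 1.04 FPKM. The wild-type pools thus also differed by more than counting error. The call was lost after the GC and length correction (log2 fold change 0.84, adjusted p = 0.0715 from limma) and without a filter on low FPKM (adjusted p = 0.169 from limma). A pseudocount of 1, large beside these levels, lowered the log2 fold change to 0.70, still called.

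*Stra6* encodes the membrane receptor for RBP4. The gene, at chr9:57976895-58001803 of mm9, has 14 annotated transcripts whose exons merge to 24 blocks. Its FPKM was 2.52 and 2.26 in *rd7* and 1.66 and 1.36 in wild-type libraries. The genotypes did not overlap and the spread was alike in both. *Stra6* rose by 0.63 on the log2 scale (standard error 0.14, 95% interval 0.28 to 0.99, adjusted p = 0.0162 from limma), or 1.55-fold. This was the least stable of the 4 calls among the settings tried. It was lost with quantile normalization (0.44, adjusted p = 0.0615 from limma), without a filter (adjusted p = 0.109 from limma) and when either wild-type library was left out (0.77 without replicate 1 and 0.50 without replicate 2).

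*Lrat* encodes the lecithin retinol acyltransferase, which makes the retinyl esters that RPE65 consumes. It lies at chr3:82696504-82707896 of mm9 on the minus strand, with 2 exon blocks. Its FPKM was 1.12 and 0.881 in *rd7* and 0.324 and 0.235 in wild-type libraries, 3.57-fold apart in the means. Between 47 and 214 estimated reads lay behind these values, and the exact 95% Poisson intervals of the *rd7* libraries, which began at 0.753 FPKM, lay above those of the wild-type libraries, which ended at 0.414 FPKM. With a mean FPKM under 1 it was outside the test. Fitted with all 21833 genes of successful status, of which 12.4% were called, 10.3% higher and 2.08% lower, *Lrat* had a log2 fold change of 1.53 (standard error 0.21, 95% interval 0.80 to 2.27) with an adjusted p of 0.057 from limma. When the GC and length correction was added to that fit, a setting chosen after the data were seen, the log2 fold change was 1.25 and the adjusted p 0.0441 from limma, within a range of 0.0441 to 0.235 over the alternatives for this gene.

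*Rbp4* encodes the plasma retinol-binding protein. The gene lies at chr19:38191110-38199811 of mm9 on the minus strand, with 7 exon blocks. Its FPKM was 1.01 and 0.675 in *rd7* and 0.428 and 0.468 in wild-type libraries. The 2 *rd7* values were higher than both wild-type values, with 20 to 47 estimated reads behind each. The exact 95% Poisson interval of *rd7* replicate 1, 0.745 to 1.35 FPKM, lay above those of both wild-type libraries, which ended at 0.658 and 0.705 FPKM, while that of *rd7* replicate 2, 0.460 to 0.957 FPKM, overlapped both. In the fit without a filter the log2 fold change was 0.76 (95% interval -0.08 to 1.61) with an adjusted p of 0.175 from limma, and *Rbp4* was not called. In that fit 0 of the 9 genes were called higher and 1, *Abca4*, lower, while 3 were higher and 1 lower at an unadjusted p under 0.05 in limma, as were 7182 of all 21833 genes in either direction. The 3 were *Ttr*, *Stra6* and *Lrat*.

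*Retsat* encodes the retinol saturase, which forms dihydroretinol and is expressed in many tissues. At chr6:72548622-72557482 of mm9, with 11 exon blocks on the plus strand, it had an FPKM of 4.08 and 4.86 in *rd7* and 4.06 and 3.73 in wild-type libraries. The lower *rd7* value was almost equal to the higher wild-type value. *Retsat* was not called (log2 fold change 0.19, 95% interval -0.08 to 0.46, adjusted p = 0.203 from limma), and its sign turned with quantile normalization (-0.013). Without *rd7* replicate 1 it was called higher at 0.31 (adjusted p = 0.0254 from limma).

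Markers of the pigment epithelium, the layer behind the retina, are given beside *Ttr*, *Rpe65*, *Stra6*, *Lrat* and *Rbp4*, whose values were all higher in both *rd7* libraries. Of 11 such markers outside the 9 genes, 6 were tested, 3 were called higher and 0 lower, beside 37.6% and 8.80% of all genes tested, and their median log2 fold change was 0.70. Both *rd7* values were above both wild-type values for 4 of the 6, beside 57.1% of all genes tested. The summed FPKM over all 11 markers, tested or not, was 41.3 and 34.3 in *rd7* and 24.2 and 16.6 in wild-type libraries. The called ones were *Rgr*, a retinal-binding opsin that is also in Müller cells (log2 fold change 1.27, adjusted p = 0.0187 from limma), *Dct*, a melanin enzyme (1.27, adjusted p = 0.0127), and *Tyrp1*, another melanin enzyme (0.94, adjusted p = 0.0467). The list was not uniform. *Tyr*, the tyrosinase gene, was flat with an FPKM of 2.86 and 2.67 in *rd7* and 2.65 and 2.75 in wild-type. *Best1*, a chloride channel of the pigment epithelium, was lower in *rd7* with 0.110 and 0.0707 against 0.178 and 0.236. It was not tested and had the lowest mean of the 11 markers, 0.149 FPKM. Also untested, *Kcnj13* (1.28 and 0.9705 against 0.525 and 0.470) and *Slc6a20a* (1.265 and 1.277 against 0.505 and 0.254) were higher in *rd7*. *Mlana* and *Slc45a2*, untested too, overlapped between genotypes. *Mlana* was listed at 0 in wild-type replicate 2. The part that an unequal amount of pigment epithelium had in the values of the 5 genes was not tested. Of 6 tested rows for markers of blood and liver 3 were called lower and 0 higher. The summed FPKM over that whole list was 79.1 and 162.3 in *rd7* against 272.5 and 319.7 in wild-type. Of the liver genes in that list, *Alb* was listed at 0 in 3 libraries and at 0.0266 FPKM in wild-type replicate 2, and *Apoa2* had 2.36 and 1.69 FPKM in *rd7* and 1.97 and 2.24 in wild-type libraries. Of the 3 lens markers tested 0 were called, with summed FPKM of 14.0 and 31.7 against 24.98 and 53.7 over the list.

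**Figure D3:**
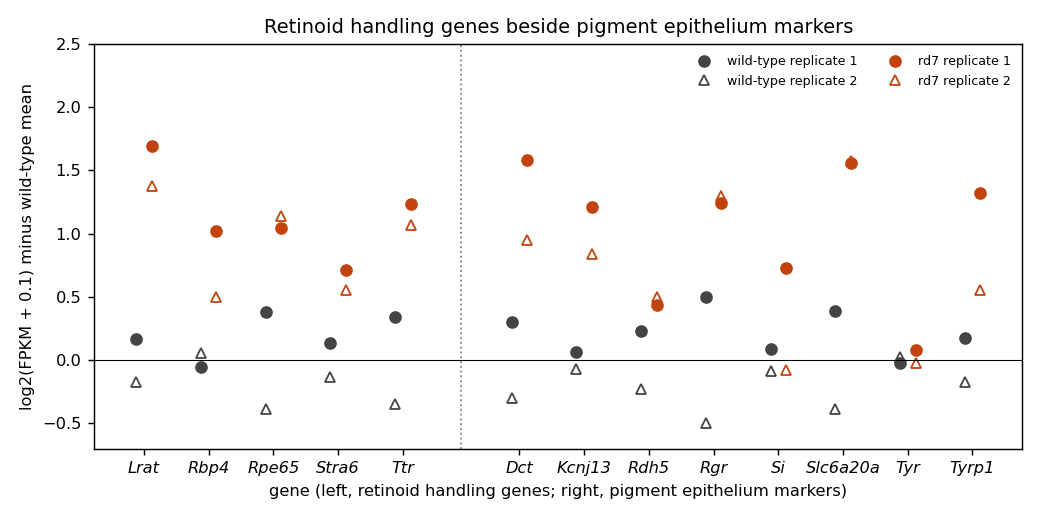
Log2(FPKM + 0.1) in each library minus the wild-type mean of the gene, for *Lrat*, *Rbp4*, *Rpe65*, *Stra6* and *Ttr* (left of the dotted line) and for the 8 of 11 pigment epithelium markers with a mean FPKM of at least 0.5 (right; *Si* is the file's symbol for *Pmel*). Grey is wild-type and orange *rd7*, with replicate 1 as filled circles and replicate 2 as open triangles. The *rd7* points lie above the wild-type points for all 5 genes on the left and for *Dct*, *Kcnj13*, *Rdh5*, *Rgr*, *Slc6a20a* and *Tyrp1*, but not for *Si* and *Tyr*.

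Ratios within a library do not change when the whole library is scaled by a common factor, as with median ratios or equal totals. Quantile normalization and the GC and length correction adjust genes by different amounts and can change them. The FPKM of *Ttr* was 17.3 and 14.3 times that of *Rpe65* in *rd7* and 15.0 and 16.7 times in wild-type libraries, and that of *Rpe65* was 0.188 and 0.195 times that of *Rgr* in *rd7* against 0.196 and 0.221 in wild-type. *Ttr* was 3.26 and 2.79 times *Rgr* in *rd7* and 2.95 and 3.70 times in wild-type. The genotypes overlapped in the ratios of *Ttr* to *Rpe65* and to *Rgr*. Relative to the summed pigment epithelium markers, *Ttr* was at 0.953 and 1.02 in *rd7* and at 0.870 and 0.791 in wild-type, without overlap. *Rpe65* was at 0.0552 and 0.0712 times that sum in *rd7* and at 0.0579 and 0.0474 in wild-type, with overlap. Relative to *Tyr*, 1 of these markers, *Ttr* and *Rpe65* were both higher in *rd7*. *Ttr* was at 13.7 and 13.1 times against 7.95 and 4.75 times, and *Rpe65* at 0.795 and 0.914 times against 0.529 and 0.285 times. *Lrat* was at 0.491 and 0.361 times *Rpe65* in *rd7* and 0.231 and 0.301 times in wild-type, and at 0.0271 and 0.0257 times the summed pigment epithelium markers against 0.0134 and 0.0142. *Stra6* went the other way, with 1.11 and 0.927 times *Rpe65* in *rd7* and 1.18 and 1.74 times in wild-type. Among the abundant genes *Abca4* was 0.649 and 0.781 times *Rlbp1* in *rd7* and 1.12 and 1.07 times in wild-type, and it was 0.159 and 0.140 times *Rbp3* against 0.200 and 0.195. The genotypes did not overlap in any of these ratios to *Abca4* or in those of *Lrat*.

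**Figure D4:**
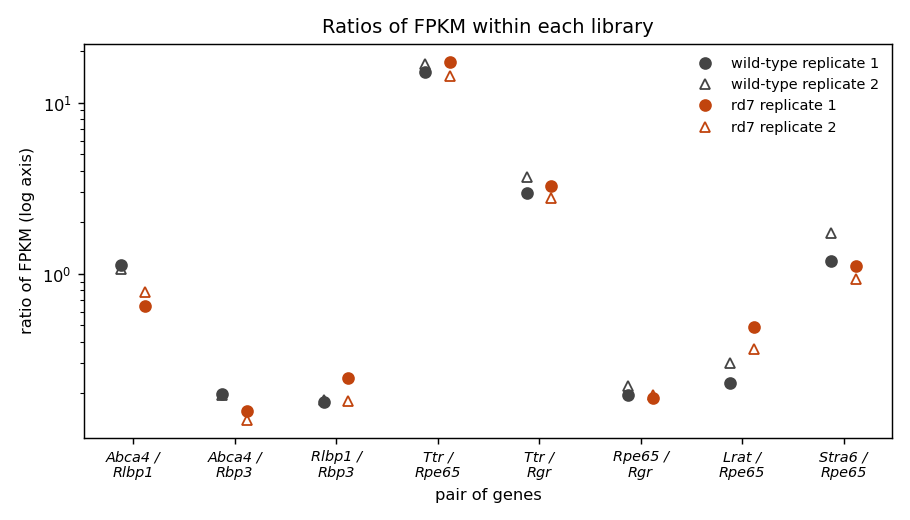
Ratio of the FPKM of pairs of genes within each library (log axis), with wild-type in grey, *rd7* in orange, replicate 1 as filled circles and replicate 2 as open triangles. *Abca4* over *Rlbp1* is above 1 in both wild-type libraries and below 1 in both *rd7* libraries, *Lrat* over *Rpe65* is higher in *rd7*, and *Ttr* over *Rpe65* overlaps between genotypes.

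The profile of each tested gene over the 4 libraries was compared with that of genes within 4 times its level, by the Euclidean distance of log2(FPKM + 0.1) after each gene's mean was subtracted. The 2 genes nearest to *Ttr* among 7632 were *Rgr* (distance 0.30) and *Dct* (0.35). Nearest to *Rpe65* were *Gm16386* (0.10) and *Snord2* (0.27), and to *Stra6* *Mapk15* (0.048) and *Arhgef6* (0.074). Those nearest to *Abca4* among 1741 were *Fscn2* (0.015), which encodes a fascin of photoreceptors, and *Alpl* (0.045). For *Rbp3* the nearest was *Gpi1* (0.016). For *Rlbp1* they were *Cox7c* (0.026) and *Hsbp1* (0.028), and for *Retsat* *Slmo1* (0.041) and *Ugdh* (0.042). With 4 libraries such a likeness is a description only.

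Other genes of retinoid handling outside the dehydrogenases were followed in a list of 28 symbols, of which 26 were in the table and 20 were tested. At an FDR of 5%, 7 were higher and 4 lower in *rd7*, or 35.0% and 20.0%, beside 37.6% and 8.80% of all genes tested. The median log2 fold change was 0.11, beside 0.15 for all genes tested. Among those higher were *Rgr*, the lipid exporter gene *Abca1* (0.51), the lipoprotein lipase gene *Lpl* (0.44), *Lpcat1* (0.29), which encodes a lysophospholipid acyltransferase, the opsin gene *Rrh* (0.25) and *Degs1*. Lower were *Lrp2* (-1.003), which encodes megalin, an endocytic receptor that takes up RBP4, *Crabp2* (-0.55), a gene of a retinoic acid-binding protein, *Abca7* (-0.54), a relative of *Abca4*, and *Dgat1* (-0.44), an acyltransferase that can esterify retinol. *Lrp2* had an FPKM of 1.09 and 1.12 in *rd7* and 2.26 and 2.36 in wild-type libraries, with no overlap between genotypes. *Degs1* had 25.8 and 28.0 FPKM in *rd7* and 23.1 and 22.9 in wild-type libraries. Its product DES1 has been proposed as the isomerase of Müller cells. The log2 fold change of *Degs1*, 0.22 (adjusted p = 0.0269 from limma), was the smallest of the 7 called higher. It lay near the median of 0.15 for all genes tested, so it cannot be separated from the scaling. *Awat2*, the gene of the acyltransferase MFAT, had 0.886 and 0.691 FPKM in *rd7* and 0.947 and 1.05 in wild-type libraries and was not tested. With median-ratio scaling the list had 2 genes higher and 7 lower, among 19.7% and 19.6% of all genes. At most 2 of the 7 higher calls were thus kept under that scaling.

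Of 6 retinol dehydrogenases that act beside these genes, *Rdh10* (32.5 and 25.9 FPKM in *rd7*, 10.7 and 11.6 in wild-type) and *Rdh11* were called higher and *Rdh12* and *Dhrs3* lower, while *Rdh8* was not called. *Rdh5*, an 11-*cis*-retinol dehydrogenase of the pigment epithelium, had an FPKM of 4.98 and 5.22 in *rd7* and 4.30 and 3.11 in wild-type libraries and was not called (log2 fold change 0.47, adjusted p = 0.0513 from limma).

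**Figure D5:**
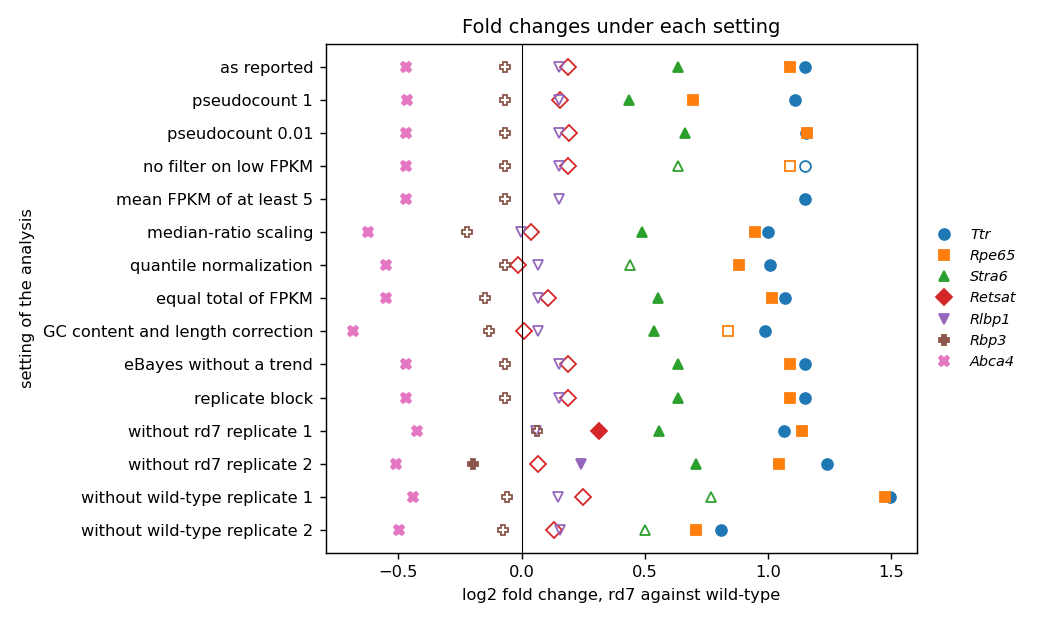
Log2 fold change of *rd7* against wild-type for the 7 tested genes (symbols) under each setting of the analysis (rows), with filled symbols where the gene was called at an FDR of 5% and open symbols where it was not. *Abca4* is filled in each row, *Ttr* in each but the one without a filter, and *Stra6* is open in 4 rows. *Rpe65*, *Stra6* and *Retsat* have no symbol at a mean FPKM of at least 5.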

How the data were processed

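RNA-seq of 4 libraries of mouse retina, 2 *rd7* and 2 wild-type, was used. Per the labels and the study's methods, the authors aligned single reads to mm9 (TopHat 1.4.1), and Cufflinks 1.3.0 gave an FPKM for every gene in each library. The annotation they used is not given in the sources used here. The deposited values are FPKM and hold no counts, which leaves out count models. A second deposited file holds the authors' Cuffdiff comparison (pooled FPKM, fold changes, p-values and q-values), and was not used.

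The 9 genes and all lists were chosen with earlier results of these data known. Loci with a status other than successful (262) were left out, and file starts were shifted to count the first base as 1. Log2(FPKM + 0.1) entered limma 3.58.1 under R 4.3.3, using eBayes with trend and Benjamini-Hochberg adjustment, 2 against 2 libraries without a block, wherever the FPKM averaged 1 or more. The step was also run on simulated data in which 200 of 12655 genes changed, up and down in equal number. That is far fewer than the 46.4% of genes called here, so the simulation does not check these calls. An exact permutation test of 2 against 2 libraries cannot give a p under 0.333 and was not used. Other values came from Python 3.11.15 with scipy 1.17.1.

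The worth of 1 read was the mode of FPKM times exonic length in low genes with 1 annotated transcript of over 800 bases, within a window of 0.02 to 0.036, so estimated depths cannot differ by more than that window. Reads per gene use merged exons, so they are approximate, and intervals cover counting error only. The named genes were the 9 genes, up to 10 called genes of the retinoid list with those the study's introduction names, defining markers, and the 2 nearest profiles per tested gene, and some genes under that rule are not reported here. All 6 dehydrogenases were named beside these genes outside that rule, after their values were seen. The other settings were pseudocounts of 1 and 0.01, no filter, a minimum average of 5 FPKM, scaling by median ratios, quantile normalization, equal totals, a GC and length correction (natural splines), no variance trend, a replicate block, an FDR of 1%, and leaving out each library.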

Additional observations from a re-analysis of the deposited data

How the results depend on the processing

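The fall of *Abca4* was called under every setting tried. Calls of the others depended on the setting. Without a filter on low FPKM, which adds genes with noisy low values, *Ttr* (1.15), *Stra6* (0.63) and *Rpe65* (1.09) kept their log2 fold change and lost the call, leaving 0 of the 9 genes higher. With a minimum average of 5 FPKM, which leaves *Stra6* and *Rpe65* untested, and at an FDR of 1%, 1 was higher. *Stra6* lost its call with quantile normalization (0.44) and *Rpe65* after the GC and length correction (0.84), while *Rlbp1* turned to -0.0026 when scaled by median ratios and *Retsat* to -0.013 under quantile normalization. *Lrat*, fitted without a filter, was called only with the GC content and length correction added (1.25). The cause was not tested.

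With each library left out in turn, log2 fold changes ranged from 0.060 to 0.24 for *Rlbp1*, -0.20 to 0.063 for *Rbp3*, 0.065 to 0.31 for *Retsat*, 0.50 to 0.77 for *Stra6*, 0.81 to 1.495 for *Ttr*, 0.71 to 1.48 for *Rpe65*, -0.51 to -0.43 for *Abca4*, 1.37 to 1.70 for *Lrat* and 0.50 to 1.03 for *Rbp4*. Of the 9 genes, 2 to 4 were then called higher and 1 to 2 lower, of the other retinoid genes 1 to 8 and 1 to 5, and of all genes 1293 to 5484 and 224 to 1601. The lone library of a genotype is there assumed to vary like the other genotype.

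Of the other retinoid genes, 7 were higher and 4 lower as reported. Higher were 1 without a filter, 2 with median-ratio scaling, quantile normalization, the GC content and length correction or an FDR of 1%, and 3 with equal totals. Lower were 1 without a filter, 2 with a minimum average of 5 FPKM, and 7 with median-ratio scaling or quantile normalization. Over all genes, 4755 were higher and 1114 lower. These counts were 2249 and 455 without a filter, 2492 and 2479 when scaled by median ratios, 2350 and 2404 under quantile normalization, 3337 and 1705 with equal totals, 1520 and 1849 with the GC content and length correction, and 2582 and 446 at an FDR of 1%.

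Libraries that share a replicate number were not paired by it (r = -0.0265 across genes between the deviations of the libraries numbered 1). With a replicate block the log2 fold changes were the same by construction (1.15 for *Ttr*, -0.47 for *Abca4*), 4508 genes were called higher and 1091 lower, and 3 and 1 of the 9 genes were called as without it. The fewest estimated reads lay behind *Rbp4*, *Lrat* and *Rpe65*.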
